A study of Mus musculus with 14 samples.

Results

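The regions described here are 7671 stretches of chromatin that were called open in mouse neural stem cells carrying the ZFTA-RELA fusion, not called in the matching empty-vector cells, and inside genes. They were chosen from deposited ATAC-seq peak lists. The peaks of the 2 empty-vector libraries and of the 2 untreated fusion libraries on chromosomes 1 to 19 were merged where they overlapped by at least 1 bp, which gave 72575 regions. A region was kept when both untreated fusion lists and neither empty-vector list had a peak in it, when it lay more than 1 kb from every protein-coding gene end, and when it overlapped a protein-coding gene body. Presence in those 4 lists therefore chose the regions and is not a finding. Over all 72575 regions 22.3% had the same pattern in these 4 lists, 16194 in all, of which 7764 lay between genes and 759 within 1 kb of a gene end.

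ATAC-seq maps DNA that the Tn5 transposase can reach, so a peak marks accessible chromatin. Peaks inside genes but away from their ends often mark enhancers, or starts of shorter transcripts. ZFTA-RELA joins a zinc finger protein to RELA, the transactivating subunit of NF-kB, and is the defining fusion of a class of supratentorial ependymoma. AP-1, a family of FOS and JUN dimers, is a signal-responsive factor that commonly occupies enhancers.

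The series has 14 libraries in 7 groups of 2, from mouse neural stem cells cultured with EGF and FGF. EV cells carry the empty vector and ZR cells carry the fusion; both are the untreated groups that chose the regions. ZR_DMSO, ZR_GSK343 and ZR_dmCitra are fusion cells given DMSO, GSK343 at 10 µM for 96 h, or citraconate at 10 mM. GSK343 inhibits EZH2, the Polycomb methyltransferase, and the submitters call citraconate an antagonist of ACOD1, the enzyme that makes itaconate. DMSO_50K and Citraconate_50K are a second pair of groups, the latter fusion cells with citraconate at 10 mM. For DMSO and citraconate the labels give 24 h and 48 h without saying which library had which. The question the design poses is whether blocking EZH2 or ACOD1 changes the chromatin of fusion cells.

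Some labels conflict. The cell line label of DMSO_50K says empty vector, while the growth text shared by all libraries says fusion cells. The treatment label of ZR_DMSO says PBS against DMSO in its title, and the EV replicates are labelled DMSO and PBS. The labels do not say that replicates came from separate cultures, so every p-value measures only the spread between these libraries, which may be technical. Lists ranged from 11806 peaks (ZR_DMSO replicate 1) to 58475 (DMSO_50K replicate 2), and the ZR_GSK343 replicates had 18324 and 55369. A longer list meets more regions, so the main percentages below are given for the deposited lists and again for the strongest 11806 peaks of each list (called equal length). Other values are of the deposited lists unless equal length is named. Ranks come from lists of different length and describe a peak within its own list. Of 14 neural stem cell marker genes, 11 and 12 had a gene-end peak in the EV lists, 6 to 7 in the ZR lists and 2 to 10 in the treated lists. No oligodendrocyte marker of 3 had one in any list except EV, where 1 did. Of 4 neuron markers, 3 and 2 had one in EV and 1 to 3 in the other lists. Of 4 mesenchymal and vascular markers, 3 and 3 had one in EV and 0 to 2 elsewhere. Of 4 astrocyte and 4 microglia markers, 1 of each had one in both EV lists. Elsewhere 0 to 2 and 0 to 1 did.

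The regions were narrow. Their median width was 472 bp, with quartiles of 335 and 658 bp, close to the 461 bp of the regions gained between genes and below the 881.5 bp of the 3942 inside-gene regions present in all 4 EV and ZR lists (called shared). Their median distance to the nearest gene end was 26829 bp. The 29 members that exceeded the 1 kb limit by at most 100 bp had a median width of 457 bp and a median percentile of 36.1 in the poorer ZR list (100 is the strongest peak). The 29 gained regions inside genes that missed it by at most 100 bp had 483 bp and 28.1. Exon and intron positions were not used here.

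A small set of the regions overlapped a gene start recorded in RefSeq, because genes can have internal starts far from their outer ends. Of the 7671 members, 101 (1.32%) overlapped a start window, which runs from 250 bases before to 50 bases after a transcript start (RefSeq, GRCm38.p6, the mm10 assembly). The share was 22.7% in shared inside-gene regions and 2.67% in the 5515 inside-gene regions of the opposite pattern (both EV lists, neither ZR list, called lost). Only these windows could be read, and they were searched for the AP-1 core TGACTCA and its reverse complement TGAGTCA. A window can reach beyond the member it overlaps, so a core counted here can lie outside the member, as at the gene Sele. Among the 112 windows that overlapped members, 28 (25.0%) held a core. Among windows that overlapped regions gained between genes the share was 32.2%. It was 4.75% in shared and 3.61% in lost inside-gene regions, and 5.26% over all 31396 windows of the table. Windows of neighbouring starts overlap in part, so they are not independent. The NF-kB letters GGG and TTTCC, separated by any 2 bases and on either strand, were in 1 of the 112 windows (0.893%), against 3.48% of those gained between genes, 1.55% of shared, 4.82% of lost and 1.66% of all windows.

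Of the 101 members, 67 overlapped a start window of their own protein-coding host, in 66 genes, and 15 of these 72 windows held the AP-1 core. The 250 bases before the start are shown for 6 such genes, to show where the AP-1 core (capitals) lies, and for Aim2, a strong member with none. They include the best-ranked member, in Ptpre. The other genes were picked after their values were seen and not by the distance of the core. Cores closer to the start than most of these, as in Smim14 and Zfp385b, are not shown. Each sequence reads 5′ to 3′ along the transcribed strand and ends at the base before the start.
Ptpre: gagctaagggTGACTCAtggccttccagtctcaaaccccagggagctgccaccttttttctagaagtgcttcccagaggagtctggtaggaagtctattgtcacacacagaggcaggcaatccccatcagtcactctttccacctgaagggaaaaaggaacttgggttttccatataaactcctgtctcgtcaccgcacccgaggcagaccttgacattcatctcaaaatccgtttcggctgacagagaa
Sgms1: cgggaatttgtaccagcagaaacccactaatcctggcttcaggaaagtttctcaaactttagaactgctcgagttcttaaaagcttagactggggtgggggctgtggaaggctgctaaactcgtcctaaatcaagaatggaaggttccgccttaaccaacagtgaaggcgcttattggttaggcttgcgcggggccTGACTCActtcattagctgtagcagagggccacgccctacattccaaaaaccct
Adh7: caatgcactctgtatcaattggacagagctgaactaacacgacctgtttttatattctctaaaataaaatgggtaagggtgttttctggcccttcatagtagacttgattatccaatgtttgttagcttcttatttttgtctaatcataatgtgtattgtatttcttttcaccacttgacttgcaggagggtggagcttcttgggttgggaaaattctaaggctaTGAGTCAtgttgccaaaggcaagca
Mgst2: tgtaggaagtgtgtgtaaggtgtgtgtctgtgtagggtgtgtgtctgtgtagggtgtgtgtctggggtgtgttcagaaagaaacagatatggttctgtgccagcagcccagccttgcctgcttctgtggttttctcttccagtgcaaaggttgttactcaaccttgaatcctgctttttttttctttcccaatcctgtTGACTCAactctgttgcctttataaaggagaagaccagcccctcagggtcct
Il11: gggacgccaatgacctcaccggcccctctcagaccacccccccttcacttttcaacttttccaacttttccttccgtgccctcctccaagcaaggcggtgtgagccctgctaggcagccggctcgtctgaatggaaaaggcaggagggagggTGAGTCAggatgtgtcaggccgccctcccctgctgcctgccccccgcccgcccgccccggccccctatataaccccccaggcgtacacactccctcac
Plaur: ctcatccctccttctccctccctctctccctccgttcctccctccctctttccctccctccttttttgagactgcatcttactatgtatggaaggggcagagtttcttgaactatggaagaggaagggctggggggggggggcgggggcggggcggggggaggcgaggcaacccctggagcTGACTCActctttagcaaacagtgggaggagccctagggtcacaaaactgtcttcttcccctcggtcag
Aim2: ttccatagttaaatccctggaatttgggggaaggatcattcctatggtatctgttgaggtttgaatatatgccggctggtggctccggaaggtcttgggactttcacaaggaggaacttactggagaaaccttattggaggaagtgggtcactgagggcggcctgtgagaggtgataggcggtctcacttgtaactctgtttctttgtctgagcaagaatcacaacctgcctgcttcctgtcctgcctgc
Counted back from the start, with -1 the base before it, the core began at -240 in Ptpre (chr7:135605578-135605827, plus strand) and -54 in Sgms1 (chr19:32211014-32211263, minus strand). It began at -25 in Adh7 (chr3:138217523-138217772, plus strand), -52 in Mgst2, -98 in Il11 and -69 in Plaur. Of the 27 members with a core in a window, 3 and 8 had a peak in ZR_DMSO and 2 and 25 in ZR_GSK343. Of the 74 with a window and no core, 16 and 25 had one in ZR_DMSO and 21 and 60 in ZR_GSK343. The match describes these letters only and is not evidence that a factor bound.

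Ptpre encodes a receptor-type protein tyrosine phosphatase, and its member (chr7:135604540-135606102) lay 66716 bp from the nearest gene end. Its peak ranked 193 and 260 in the ZR lists, where rank 1 is the strongest peak of a list. It ranked 407 and 949 in ZR_DMSO, 1971 and 1367 in ZR_GSK343, 552 and 831 in ZR_dmCitra, 159 and 120 in DMSO_50K, and 1142 and 1249 in Citraconate_50K. It was thus within the strongest 1971 peaks of every list but EV. Aim2 encodes a cytosolic DNA sensor of the inflammasome. Its start member ranked 1732 and 1179 in ZR, had no peak in ZR_GSK343 replicate 1, and ranked 8757 in ZR_GSK343 replicate 2. Il11, an interleukin of the IL-6 family, had its internal-start peak at rank 41012 and 36260 in ZR, near the end of both lists, and in only 1 other list, ZR_GSK343 replicate 2, at rank 42439. Sele, the endothelial adhesion receptor E-selectin, was likewise found in ZR (28560 and 24730) and in ZR_GSK343 replicate 2 (26531). Plaur, the urokinase receptor, ranked 38957 and 42390 in ZR and 9925 and 19155 in Citraconate_50K, and was in neither ZR_DMSO list. Igf2, an insulin-like growth factor, had a start member in all 10 lists that the rule did not use, at rank 8205 and 4328 in ZR_GSK343.

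**Figure D1:**
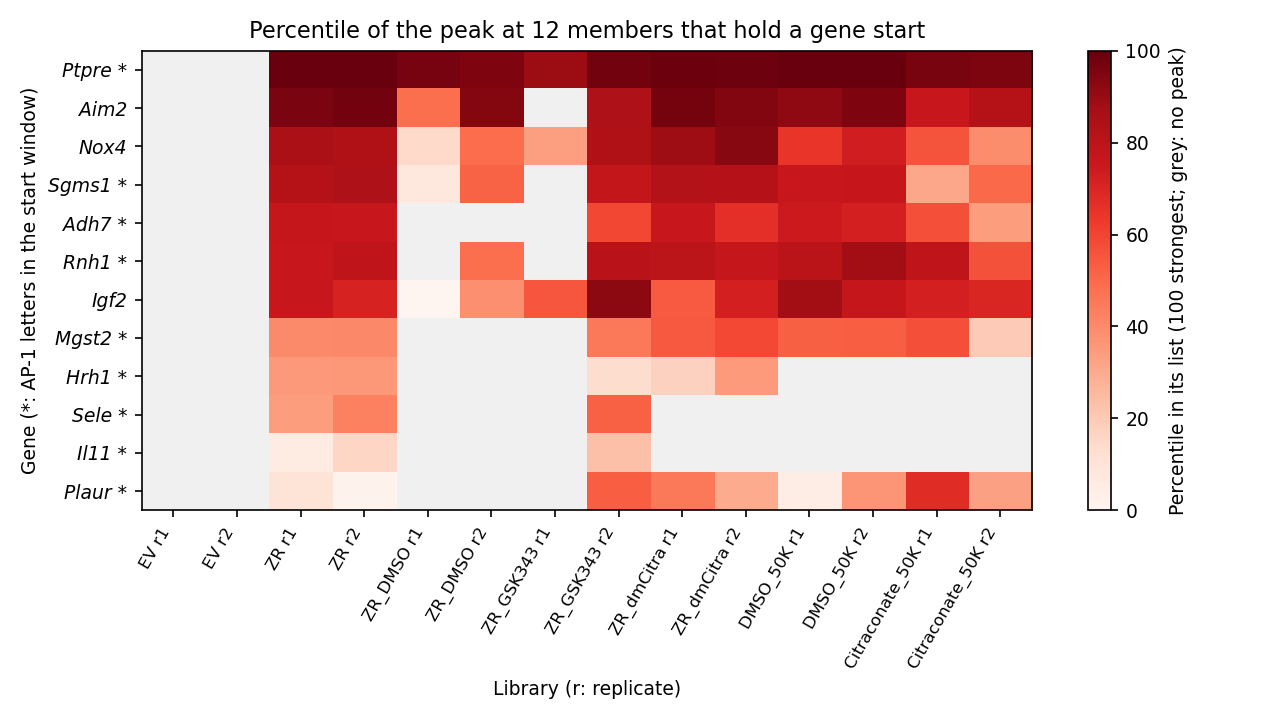
Percentile of the peak in each list (columns, 14 libraries) at 12 members that overlap a gene start window (rows). The strongest peak is 100 and grey means no peak. A star marks the AP-1 core in a start window, which can lie outside the member. Ptpre is near the top of all 12 lists other than EV, while Il11 and Sele appear outside ZR only in ZR_GSK343 replicate 2.

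Members at their own host's start were found more often than other members in lists the rule did not use. In ZR_DMSO 25.4% and 38.8% of these 67 had a peak, in ZR_GSK343 26.9% and 88.1%, in ZR_dmCitra 80.6% and 83.6%, in DMSO_50K 85.1% and 85.1%, and in Citraconate_50K 65.7% and 64.2%. At equal length the values were 25.4% and 28.4% in ZR_DMSO, 13.4% and 29.9% in ZR_GSK343, 29.9% and 23.9% in ZR_dmCitra, and 22.4% in each library of DMSO_50K and Citraconate_50K. In the deposited lists the difference from the other members was positive in 10 of 10 libraries and averaged 15.5 ± 11.4 percentage points (SD, n = 10; exact sign-flip permutation test over libraries, two-sided p = 0.00195, the smallest 10 libraries allow). With lists cut to equal length it was 10.6 ± 6.38 points, again in 10 of 10. Over the means of the 5 groups the same exact test cannot go below p = 0.0625, and gave that value. The comparison was added after the values had been seen, so its p-values describe the spread of these libraries and are not support. All 10 libraries score the same 67 members. These were not matched to the other members for width or strength in ZR, and the part of either was not tested.

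The full set of members was found again at very different rates in the 5 other groups. In the deposited lists ZR_dmCitra held 79.4% and 77.2% of them, DMSO_50K 74.5% and 81.0%, Citraconate_50K 41.5% and 38.9%, and ZR_DMSO 13.7% and 26.1%. ZR_GSK343 held 6.39% and 50.6%, so its replicates lay on both sides of ZR_DMSO. Among the strongest 11806 peaks the ZR lists themselves held 19.1% and 19.1% of the members. On that scale ZR_dmCitra held 20.2% and 19.2%, DMSO_50K 18.8% and 19.9%, ZR_DMSO 13.7% and 14.9%, Citraconate_50K 10.6% ± 0.581 (n = 2), and ZR_GSK343 2.40% and 5.20%. Both ZR_GSK343 libraries were then below those of the other 4 groups. In the deposited lists DMSO_50K, although its cell line label is empty vector, held most members. It also held 15.8% and 19.5% of the inside-gene regions that were open only in EV. At equal length the latter shares were 0.907% and 1.14%, against 17.7% and 16.7% in the EV lists that chose those regions.

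**Figure D2:**
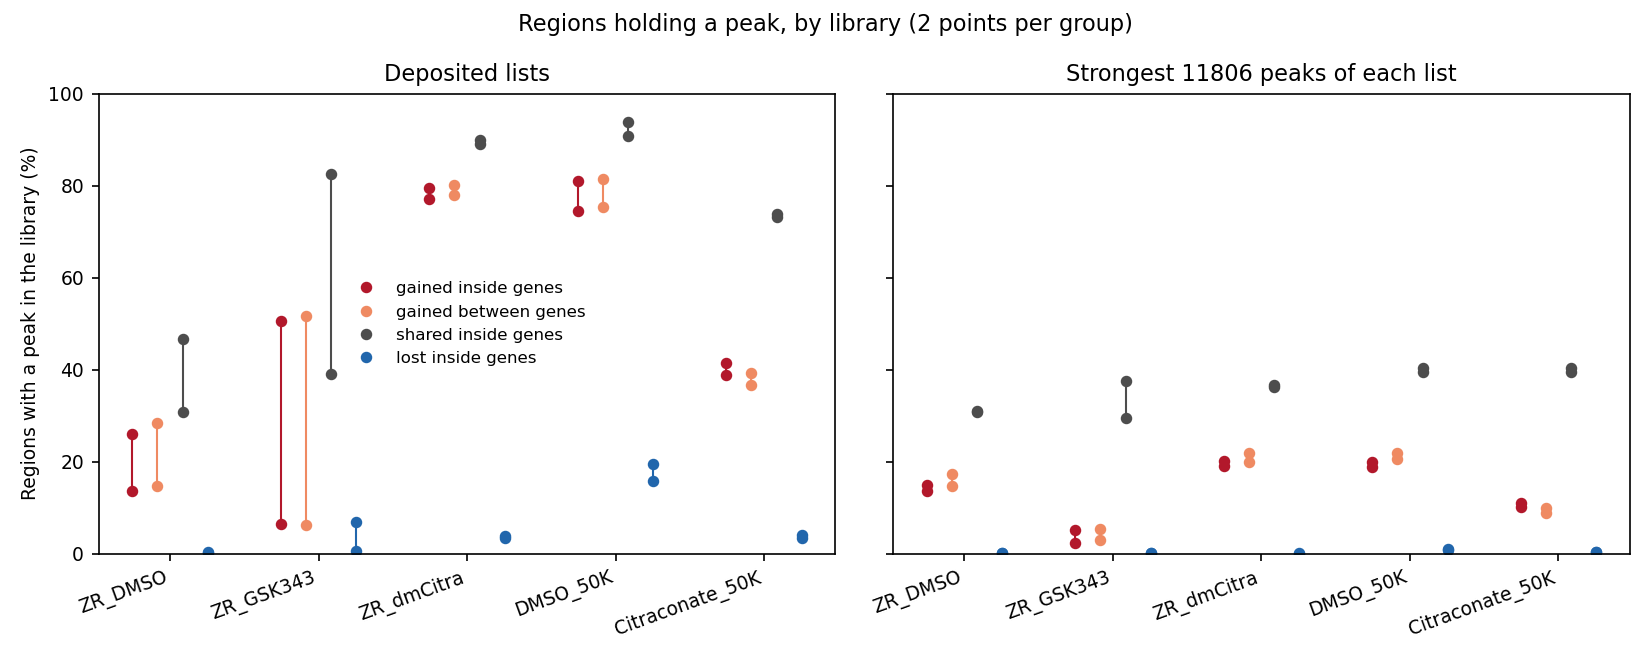
Percent of regions with a peak in each library (vertical axis) for 5 groups, in the deposited lists (left) and in the strongest 11806 peaks of each list (right); points are the 2 libraries of a group joined by a line, and colours are 4 sets of regions. Members and regions gained between genes run together, and at equal length both are lowest in ZR_GSK343.

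Members and the regions gained between genes were found at close rates, and their difference did not pass the test. Over the 10 libraries it averaged -0.25 ± 1.45 points (SD, n = 10; exact sign-flip permutation test, two-sided p = 0.600). The sign was mixed, also between the ZR_GSK343 libraries, at 0.180 and -1.07 points. Members were 2.26 and 2.24 points higher in the Citraconate_50K libraries, while the differences ran from -2.31 to -0.499 points in both libraries of ZR_DMSO, ZR_dmCitra and DMSO_50K. Shared inside-gene regions were found more often than members in all 10 libraries, by 22.0 ± 9.69 points (exact sign-flip permutation test, p = 0.00195). Lost inside-gene regions were found less often in all 10, by 43.1 ± 24.1 points (p = 0.00195 in the same exact test). At equal length the last difference was 13.2 ± 6.16 points, again in 10 of 10, while members minus shared regions was -22.7 ± 6.29 points. Members minus regions gained between genes was then -0.82 ± 1.21 points (exact sign-flip permutation test, p = 0.0664). In the deposited lists, over the means of the 5 groups the tests against shared and lost regions gave exact p = 0.0625, the smallest value possible. Both contrasts are tied to the choice of the sets. Lost regions were chosen as absent from both ZR lists and members as present in them. Shared regions were wider (median 881.5 against 472 bp) and stronger in ZR (median poorer percentile 59.8 against 41.7). These 2 tests therefore cannot separate a trait of the members from that choice.

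The EZH2 inhibitor comparison depended on the list length. In the deposited lists the mean of ZR_GSK343 (28.5% ± 31.3, n = 2) was 8.56 points above that of ZR_DMSO (19.9% ± 8.77, n = 2; exact permutation test, p = 1). At equal length it was 10.5 points below (exact permutation p = 0.3333), with no overlap between the groups. With 2 libraries against 2 the exact test cannot go below 0.3333, so no such comparison can pass a threshold of 0.05. Shared inside-gene regions overlapped between the groups on these equal-length lists, at 30.8% and 31.1% in ZR_DMSO and 29.5% and 37.6% in ZR_GSK343. The change at members was lower than that at shared regions by 13.5 ± 2.44 points in the deposited lists. Gene ends held 58.5% and 65.2% of the strongest 11806 ZR_GSK343 peaks, against 39.9% and 40.4% of those of ZR_DMSO. When each list was cut instead to its strongest 3265 inside-gene peaks, ZR_GSK343 still held 4.42% and 10.2% of the members against 13.7% and 15.0% in ZR_DMSO, and more of the shared regions (35.0% and 46.8% against 30.8% and 31.3%). The part of list composition in the rest of the difference was not tested.

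For citraconate the 2 series of libraries differed in sign. ZR_dmCitra (78.3% ± 1.57, n = 2) was 58.3 points above ZR_DMSO in the deposited lists and 5.32 points above at equal length. Citraconate_50K (40.2% ± 1.83, n = 2) was 37.6 points below DMSO_50K (77.7% ± 4.56, n = 2) and 8.77 points below at equal length. Replicates did not overlap in either comparison (exact permutation test, p = 0.3333 each). The difference between the 2 citraconate effects was 95.9 points (exact permutation of treatment within series, 36 arrangements, p = 0.0556, the smallest possible). At equal length it was 14.1 points. The second comparison is between cells whose labels disagree, so treatment and cell line cannot be told apart there. The ZR_DMSO lists of the first comparison were short. Their peaks were narrow, with median widths of 229 and 187 bp against 461 and 420 bp in ZR_dmCitra. The part of either was not tested. Shared inside-gene regions were also higher in ZR_dmCitra than in ZR_DMSO, at 89.5% against 38.7% in the deposited lists. At equal length they were at 36.5% against 31.0%. In Citraconate_50K they were at 73.5% against 92.3% in DMSO_50K, and at 40.0% in both at equal length.

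Strength in ZR went with how often a member was found again, in the deposited lists of every group. Of the 1918 members in the strongest quartile of the poorer ZR percentile, ZR_dmCitra held 99.2% and 98.6%, Citraconate_50K 70.3% and 68.2%, ZR_DMSO 40.1% and 64.8%, and ZR_GSK343 13.4% and 81.3%. In the weakest quartile the values were 54.9% and 52.4%, 23.7% and 21.0%, 2.03% and 5.84%, and 3.39% and 27.2%. At equal length the relation was not stepwise in ZR_GSK343 replicate 1, which held 1.72%, 1.15%, 1.30% and 5.42% of the members from the weakest to the strongest quartile. Of all members 208 (2.71%) were in none of the 10 other lists and 149 (1.94%) in all 10, with a median of 5 lists. Shared inside-gene regions were in all 10 lists in 17.3% of cases. Where a member was found, its summit lay a median of 35 to 48 bp from the ZR summit in 9 lists and 70 bp in ZR_GSK343 replicate 1.

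**Figure D3:**
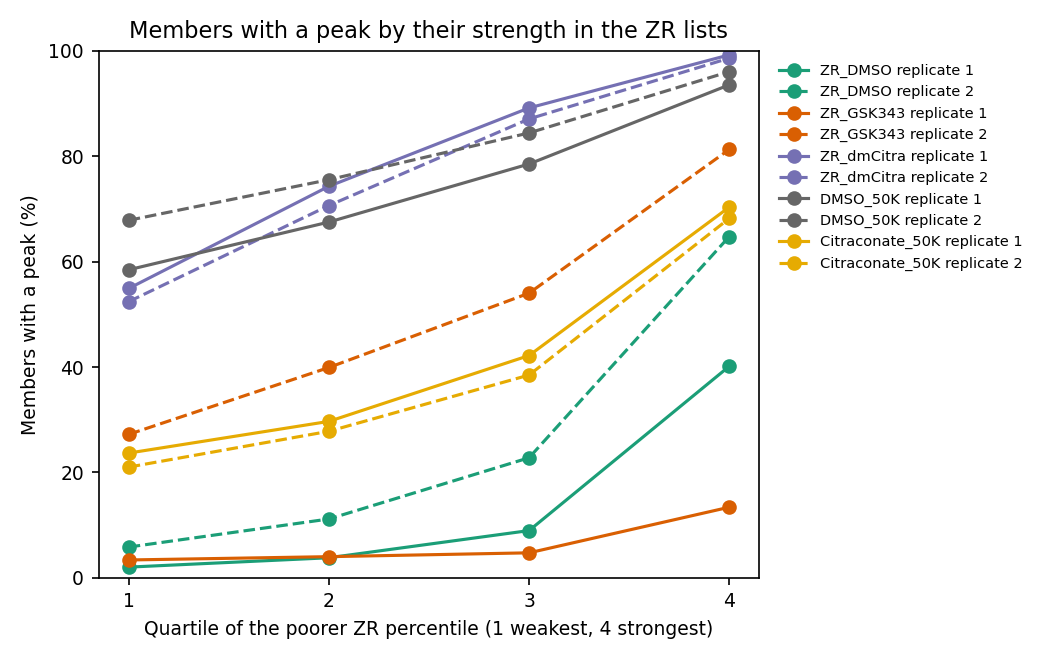
Percent of members with a peak in the deposited lists (vertical axis) by quartile of the weaker of the 2 ZR peaks (1 weakest, 4 strongest), a line for each of 10 libraries; dashed lines are replicate 2. Every line is higher at quartile 4 than at quartile 1, and ZR_GSK343 replicate 1 stays lowest in the strongest quartile at 13.4%.

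The strongest members included genes of several kinds. Map2k6 encodes a kinase that activates p38, and its member (chr11:110511088-110512044) ranked 427 and 350 in ZR, 262 and 486 in ZR_DMSO, 490 and 610 in ZR_dmCitra, and 100 and 134 in DMSO_50K. It ranked 7511 and 6927 in ZR_GSK343 and 2736 and 2420 in Citraconate_50K. Ifi209, an interferon-inducible gene of the Aim2 family, ranked 454 and 343 in ZR (chr1:173645207-173646063) and 9592 and 6150 in ZR_GSK343. Hs6st3, a heparan sulfate 6-O-sulfotransferase, ranked 566 and 543 in ZR (chr14:119466633-119467504) and 1289 and 1402 in ZR_DMSO. Its ranks were 25097 and 34691 in DMSO_50K and 15491 and 15247 in Citraconate_50K. Cntnap4, a contactin-associated neuronal adhesion protein, ranked 415 and 483 in ZR, 369 and 478 in ZR_DMSO, 4625 and 5771 in DMSO_50K, and 16408 and 17587 in Citraconate_50K. Slc25a21, a mitochondrial carrier of oxodicarboxylates, ranked 255 and 441 in ZR and had a peak in 9 of the 10 other lists, all but ZR_GSK343 replicate 1. The same single list was the one that lacked the members in Kcnk2, a leak potassium channel, Plcb1, a phospholipase C, Papss1, which makes the sulfate donor PAPS, and Pced1b. Other strong members present in all 12 lists apart from EV lay in Ndst3, a heparan sulfate N-sulfotransferase, Ltbp1, which binds latent TGF-beta, and Nav3.

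Single members were sorted by treatment as present in both libraries of a group and in neither of the other. In the deposited lists 127 members (1.66%) were in both ZR_DMSO lists and neither ZR_GSK343 list, where 0.537% of all 72575 regions were. At equal length 430 (5.61%) were, against 2.17% of all. In the opposite direction 166 members (2.16%) were in both ZR_GSK343 lists and neither ZR_DMSO list, against 4.65% of all regions, and 20 (0.261%) against 3.07% at equal length. Against all regions, members thus stood higher for absence and lower for gain under both list lengths. Of all 30637 inside-gene regions 0.545% were absent and 2.52% gained in the deposited lists, the latter close to the members' share. At equal length these were 2.35% and 1.05%. Absence needs a peak in both ZR_DMSO lists, which held only 0.127% and 0.381% of lost inside-gene regions. The choice of members can thus raise absence, and its part was not tested. Without ZR_GSK343 replicate 1 the gained share of members was instead above that of all regions, at 29.4% against 22.5%. Regions gained between genes were absent at 2.07% and gained at 2.14% in the deposited lists, and at 6.39% and 0.206% at equal length. Shared inside-gene regions were absent at 0.660% and gained at 9.74% in the deposited lists, and at 5.38% and 6.98% at equal length. The strongest member absent with GSK343 lay in Kmo, the kynurenine monooxygenase gene (chr1:175640167-175641089). It ranked 508 and 1078 in ZR_DMSO, 5832 and 4738 in ZR, and 1108 and 1468 in DMSO_50K. It also had a peak in both ZR_dmCitra lists, at 9978 and 8511, and none in either ZR_GSK343 or either Citraconate_50K list. A member in Nrxn3, a presynaptic neurexin (chr12:89442105-89443017), had the same pattern, at 2399 and 2608 in ZR_DMSO and 123 and 139 in DMSO_50K. Others lay in Flt1, a VEGF receptor, and Slc16a7, a monocarboxylate transporter. The strongest members in both ZR_GSK343 lists and neither ZR_DMSO list lay in Cc2d2a, a protein of the ciliary transition zone (ranks 4682 and 4726), Zfand2a (5421 and 7799) and Bnc2, a zinc finger protein (6152 and 9446).

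For ZR_dmCitra 3402 members (44.3%) were in both its lists and neither ZR_DMSO list, against 23.3% of all regions, and 5 (0.0652%) were in both ZR_DMSO lists and neither of its own, against 0.165%. At equal length these were 437 (5.70%, background 3.13%) and 130 (1.69%, background 1.61%), so the absent share was then near the background. Regions gained between genes were gained with citraconate at 43.9%, and shared inside-gene regions at 36.3%, in the deposited lists. At equal length these shares were 6.04% and 6.47%. Lost inside-gene regions, which are part of the background, were gained at only 1.58% in the deposited lists. The choice of members can thus raise their gained share, and its part was not tested. The 5 members absent with citraconate in the deposited lists lay in Dennd4c, Spag16, Fgf10, Ano3 and Idh1, the last encoding the cytosolic isocitrate dehydrogenase. The Idh1 member (chr1:65171484-65172053) ranked 16306 and 8350 in ZR and 7306 and 15064 in ZR_DMSO. The strongest member seen in ZR_dmCitra and not ZR_DMSO lay in Stim2, a calcium sensor of the endoplasmic reticulum, at rank 734 and 1135. That member was 451 bp wide and 1335 bp from the nearest gene end. The ZR_dmCitra peaks that overlapped it were 2424 and 2338 bp wide, so these ranks belong to much broader peaks. In ZR the peaks were 266 and 450 bp wide and ranked 38717 and 40570. A peak of 1855 bp ranked 1464 in Citraconate_50K replicate 1. The next strongest member lay in Fras1, an extracellular matrix protein, at rank 2719 and 2682.

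In the second series 2291 members (29.9%) were in both DMSO_50K lists and neither Citraconate_50K list, against 16.2% of all regions, and 91 (1.19%) showed the opposite, against 0.719%. At equal length the counts were 741 (9.66%, background 4.41%) and 163 (2.12%, background 3.53%). Regions gained between genes were absent at 32.6% in the deposited lists and 12.1% at equal length, above members in both. They showed the opposite at 1.02% and 1.85%. Shared inside-gene regions were absent at 13.4% and 9.89%, and lost inside-gene regions at 10.4% and 0.689%. Absence was thus not confined to members. The labels of DMSO_50K disagree on its cell line, and the part of this was not tested. The strongest members absent from both Citraconate_50K lists were the same Nrxn3 member and one in Nalcn, a sodium leak channel. The Nrxn3 member had a peak in both ZR_dmCitra lists, at rank 4123 and 5747, and the Nalcn member in neither. At the Nalcn member, 473 bp wide, the DMSO_50K peaks ranked 418 and 176 and were 1962 and 2030 bp wide. Its ZR peaks ranked 27265 and 22264. The strongest in both Citraconate_50K lists and neither DMSO_50K list lay in Adk, adenosine kinase, at rank 7669 and 8896, and at 27206 and 18767 in ZR.

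The members lay in 3696 of 20665 protein-coding genes (17.9%). Of these 2115 held 1 member, 1242 held 2 to 4, and 339 held 5 or more. Long genes were frequent hosts: 1489 of the 2313 genes over 100 kb (64.4%) held a member. Per Mb of gene body there were 7.80 gained, 5.60 lost and 4.01 shared regions. Of the hosts 1447 (39.2%) also held a lost region, as did 2791 of all 20665 genes. The hosts were longer, with a median of 76.3 kb against 17.5 kb over all genes, and the part of length in this overlap was not tested. At their ends, 60.6% of hosts had a gene-end peak in all 4 EV and ZR lists, and 3.49% had one in ZR only, against 46.2% and 2.12% of all genes. Along the gene, members fell evenly, with 33.6%, 34.8% and 31.6% in the 5′, middle and 3′ stretch of equal length, over the 5973 in a single host of known strand. Shared regions lay more toward the 5′ end, at 41.8%, 32.3% and 26.0%. Chromosome 4 was low in members, at 13.6% of its inside-gene regions against 25.0% over all chromosomes, and high in lost regions, at 433 of 1471 (29.4%) against 5515 of 30637 overall.

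Pde4d, a cAMP phosphodiesterase, Macrod2, an ADP-ribose hydrolase, and Sox5, a transcription factor of glial and cartilage development, each held 22 members. In Pde4d 7 and 9 of the 22 had a peak in ZR_DMSO, 0 and 9 in ZR_GSK343, 21 and 19 in ZR_dmCitra, 18 and 19 in DMSO_50K, and 8 and 11 in Citraconate_50K. In Sox5 the counts were 1 and 6, 0 and 13, 17 and 18, 14 and 20, and 8 and 5 in the same order. The ZR_GSK343 replicates thus disagreed within single genes as they did over all members. Stard13, a GTPase-activating protein, held 20 members, Cacna1c, an L-type calcium channel, 19, and Rbfox1, a splicing factor, 17. Macrod2 held 12 lost regions and Anks1b 9 beside their 22 and 16 members. By contrast Arhgap24, another GTPase-activating protein, held 16 members, and Dlg2, a postsynaptic scaffold, 15, with 0 lost regions in either. In all 68 genes held 5 or more members and 0 lost regions, among them Sdk1, Mbnl2 and Aim2. Aim2 held 8 and its gene end had a peak in ZR only.

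**Figure D4:**
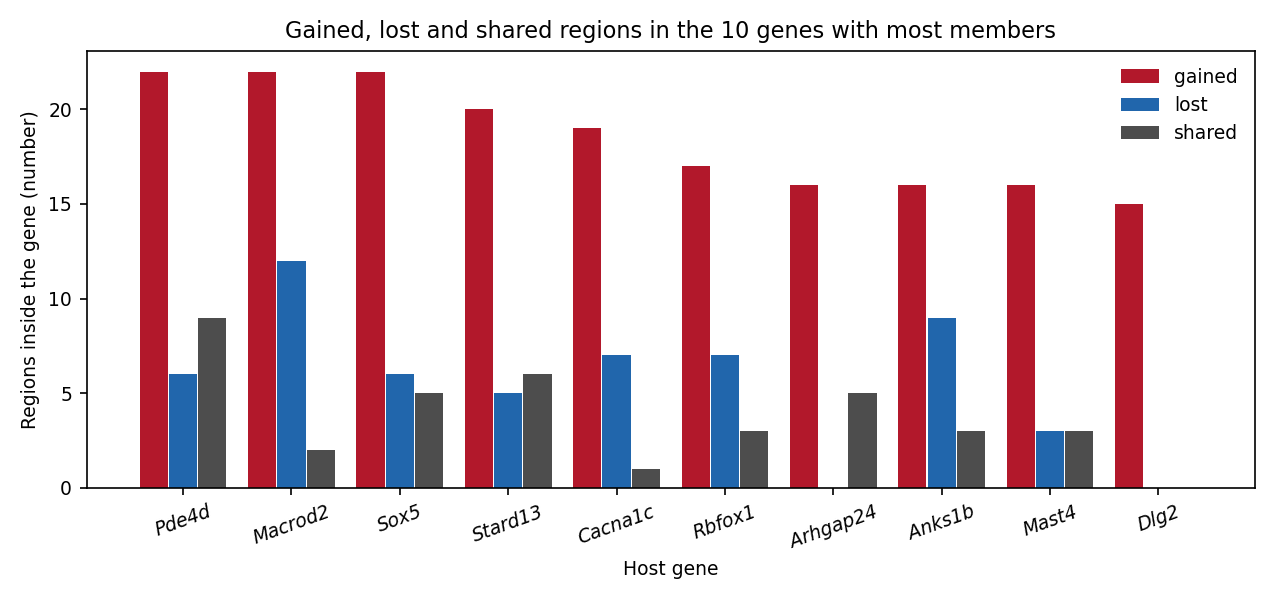
Number of regions inside the gene (vertical axis) for the 10 genes with most members, as bars for gained (members), lost and shared regions. Arhgap24 and Dlg2 have no lost region, while Macrod2 has 12.

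Among genes with at least 4 members, members were densest in Dhx34, an RNA helicase of mRNA surveillance, with 6 members in a gene of 24.9 kb. All 6 had a peak in both ZR_dmCitra and both DMSO_50K lists, and 1 and 5 had one in ZR_DMSO. Cdh5, the endothelial cadherin, held 8, of which 0 and 3 had a peak in ZR_GSK343 and 7 and 7 in ZR_dmCitra. Smad7, the inhibitory SMAD of TGF-beta signalling, held 5, of which 5 and 4 had a peak in Citraconate_50K and 0 and 1 in ZR_DMSO. Ampd3, an AMP deaminase, held 6, all present in ZR_GSK343 replicate 2 and none in ZR_GSK343 replicate 1 or ZR_DMSO. Cachd1, a protein related to calcium channel subunits, held 1 member and 2 lost regions. Ezh2, Ccnd1, Acod1 and Rela held 0 members.

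Over 18 gene lists chosen for this tissue and treatment, members per Mb were read against the 7.80 of all gene bodies. NF-kB targets and regulators had the most, with 18 members in 11 of 40 genes, or 22.0 per Mb, against 6.10 lost per Mb. They were Nfkb1, Tnip3 and Bcl2l1 with 3 each, Cflar with 2, and Ikbkb, Ikbke, Mmp9, Ptgs2, Sod2, Tnf and Tnfaip3 with 1 each. These include a subunit of NF-kB, its kinases and inhibitors, and target genes such as the cytokine Tnf. The p38 and JNK cascade held 25 members in 8 of 23 genes (16.0 per Mb, lost 5.77), led by the kinases Map3k5 with 6 and Map2k6 and Mapk10 with 5 each. Interferon response genes held 11 in 6 of 32 (15.3 per Mb, lost 4.17), of which 5 were in Irf2, a regulator of interferon genes. The share of these genes that held a member, 18.75%, was near the 17.9% of all genes. TGF-beta and BMP genes held 39 in 13 of 30 (13.1 per Mb, lost 8.73), with 14 in Ltbp1, 7 in the BMP receptor gene Bmpr1b and 5 in Smad7. Developmental transcription factors held 50 in 14 of 36 (11.2 per Mb, lost 5.81), with 13 each in Foxp1 and Runx2.

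Neural stem and radial glia genes showed the opposite balance, with 12 members in 6 of 31 genes (5.24 per Mb) and 32 lost regions (13.98 per Mb). Nfia, a gliogenic transcription factor, held 4 members and 7 lost regions, and Gli3, a mediator of Hedgehog signalling, 3 and 5. The ependymoma fusion signature held 11 members in 8 of 23 genes (10.2 per Mb) and 15 lost regions (13.9 per Mb); Il1r1, an interleukin receptor, held 4 of the members with 0 lost. Lost regions were also denser than members in Polycomb genes, with 4 members in 4 of 22 genes (4.75 per Mb, lost 8.31). The same held for itaconate and citric acid cycle genes, with 7 members in 5 of 25 (6.49 per Mb, lost 8.35). Oligodendrocyte and astrocyte genes held 10 in 2 of 17 (19.9 per Mb, lost 11.9), with 8 in Mbp, the myelin basic protein gene, and 2 in Slc1a2. The share of these genes that held a member, 11.8%, was below the 17.9% of all genes. Microglia and mesenchymal genes held 2 (5.75 per Mb, lost 8.62). The remaining 7 lists lay between 3.21 and 8.53 members per Mb, from neuronal adhesion to heparan sulfate synthesis, with extracellular matrix at 7.71. Among these 7, lost regions were denser than members in neuronal adhesion (3.89 per Mb), receptor tyrosine kinases (7.35 against 5.85) and axon guidance (7.57 against 7.47). They were sparser than members in the rest. These densities rest on few regions in the lists of short genes and carry no test.

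**Figure D5:**
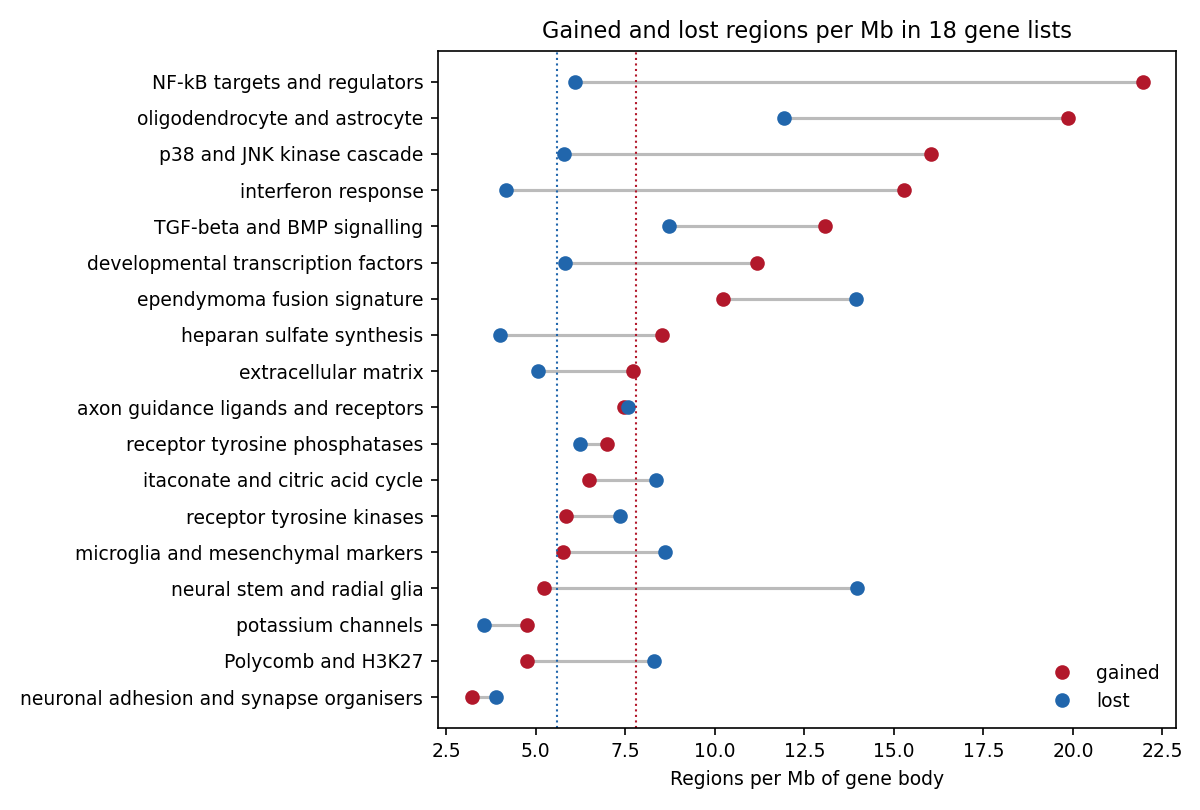
Members (gained) and lost regions per Mb of gene body (horizontal axis) in 18 gene lists; dotted lines are the values over all genes, 7.80 and 5.60. NF-kB genes have 22.0 members per Mb and neural stem genes 5.24, with lost regions at 6.10 and 13.98.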

How the data were processed

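Each ATAC-seq library came from 50000 cells with paired reads of 50 nt, at a depth stated as 40 to 45M, per the labels' protocols. The submitters' processing notes name mm10, BWA, SAMtools and Picard and give no versions. Peaks were called by MACS2 for every library on its own, per the peak names in the deposited lists. Its settings and any Tn5 read shift were not given in those sources. Each library has its own deposited narrowPeak list. In it the authors give each peak a score, a fold enrichment (a ratio), −log10 p-values and q-values, and a summit offset, all in the deposited files; these are the authors' own values, used only to rank and describe peaks within a list. Depth per library is not in these lists, so no counting interval is given.

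Peaks were ranked by −log10 q, then fold. Regions were merged, placed against RefSeq protein-coding genes (GRCm38.p6) and looked up in each list at an overlap of at least 1 bp, with Python 3.11.15, pandas 2.3.3, numpy 2.4.6 and SciPy 1.17.1. The choice and look-up were tested on simulated lists. Percentages were compared by exact permutation (2 against 2 libraries) and exact sign-flip tests (10 libraries). Equal-length lists, a −log10 q of at least 5, cover of 50% of the region, gene-end limits of 500 bp and 2 kb, and leaving out each library were tried. An equal number of inside-gene peaks, the own-start comparison and the reading of start windows were chosen after seeing the data; motif content of whole members was not analysed here. The genes named are those with most members, most members per Mb, the best poorer ZR rank, presence in all 12 lists, or the best rank among each treatment's calls, plus the fixed genes Cachd1, Ezh2, Ccnd1, Acod1 and Rela; start-window genes were chosen after their values were seen. Some genes that these rules pick are not reported here. The members and gene lists were chosen with earlier results of these data known.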

Additional observations from a re-analysis of the deposited data

Results flagged for a closer look

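The 2 citraconate comparisons had opposite signs, with no overlap between replicates in either. The percent of members with a peak was 58.3 points higher in ZR_dmCitra than in ZR_DMSO and lower in Citraconate_50K than in DMSO_50K, with a difference of -37.6 points. The difference between them had p = 0.0556 by exact permutation, the smallest the design allows.

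The difference between members and regions gained between genes also changed sign with the group. It was 2.25 points in Citraconate_50K, -1.62 in ZR_DMSO, -0.782 in ZR_dmCitra and -0.640 in DMSO_50K, with both libraries of each of these groups on the same side. The ZR_GSK343 libraries lay on opposite sides, at 0.180 and -1.07 points. The difference between groups was not tested.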

How the results depend on the processing

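Calls rest on presence in a list. For ZR_GSK343 minus ZR_DMSO, the percent of members with a peak was 8.56 points in the deposited lists, -10.5 at equal length and -7.04 with an equal number of inside-gene peaks. Leaving out each library in turn gave -13.6 to 30.7 points, and the value was -13.6 without ZR_GSK343 replicate 2. With each library left out in turn, ZR_dmCitra minus ZR_DMSO ranged from 52.1 to 64.5 points, ZR_GSK343 minus ZR_dmCitra from -71.9 to -27.7 and Citraconate_50K minus DMSO_50K from -40.8 to -34.3. At equal length these 3 were 5.32, -15.9 and -8.77 points. The change at members minus that at shared regions, ZR_dmCitra against ZR_DMSO, was 7.58 points in the deposited lists, -0.21 at equal length and -4.55 with 50% cover. Members minus regions gained between genes became 0.119 points within quartiles of ZR strength (exact sign-flip permutation p = 0.836) and ranged from -0.525 to -0.0162 with each library left out. Members minus shared and minus lost inside-gene regions were -22.0 and 43.1 points with p = 0.0625 over group means in the exact test, and ranged from -23.3 to -20.7 and from 39.5 to 47.3 points with each library left out. Members minus lost regions was 13.2 points at equal length and 14.2 with an equal number of inside-gene peaks. The cause of these changes was not tested.

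Counts of members by treatment moved more. With an equal number of inside-gene peaks, those in both libraries of one group and neither of the other numbered 336 absent and 57 gained for ZR_GSK343, 130 and 439 for ZR_dmCitra, and 590 and 272 for Citraconate_50K. Of all 30637 inside-gene regions the same calls took 1.79% and 1.63%, 1.18% and 2.58%, and 3.69% and 2.80%. At equal length they were 430 and 20, 130 and 437, and 741 and 163. With 50% cover they were 13 and 61 for ZR_GSK343, with 3 absent for ZR_dmCitra, against 0.0978%, 5.17% and 0.130% of all 72575 regions. At a −log10 q of at least 5, 3 were again absent for ZR_dmCitra, against 0.156% of all. Leaving out each library gave 128 to 645 absent and 186 to 2253 gained for ZR_GSK343, 11 to 65 and 3609 to 4438 for ZR_dmCitra, and 2420 to 2909 and 109 to 186 for Citraconate_50K. Over all regions the shares were then 0.559% to 3.42% and 4.99% to 22.5%, 0.295% to 0.806% and 24.8% to 31.5%, and 17.8% to 21.5% and 0.926% to 1.97%. ZR_GSK343 replicate 1 was the library without which 2253 were gained, and replicate 2 the one without which 645 were absent. The number of members was 7984 to 10551 with 1 EV or ZR library left out.

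Replicate numbers pair the libraries by number only: the correlation of replicate differences between paired groups over members was 0.00827 to 0.0854. With the replicate block, ZR_GSK343 minus ZR_DMSO was 8.56 points and ZR_dmCitra minus ZR_DMSO 58.3, ZR_GSK343 minus ZR_dmCitra -49.8 and Citraconate_50K minus DMSO_50K -37.6 (exact sign-flip tests, smallest possible p = 0.5). With the block on equal-length lists ZR_GSK343 minus ZR_DMSO was -10.5 points. Beyond the values above, the own-start difference was the only one to change side of the threshold, at p = 0.0625 over group means in the exact test, and no other value changed direction under the alternatives run.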
